A study of Mus musculus with 33 samples.

Results

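Flt3 and 7 genes used to recognise dendritic cells (Zbtb46, Irf4, Batf3, Clec9a, Xcr1, Cd209a and Clec10a) were followed through 33 RNA-seq libraries of sorted mouse brain cells. The members were chosen by symbol, through the Ensembl identifiers, and all 8 were found among the 21950 genes of the count table and the 27745 genes of the FPKM table. The mice carried a disease model labelled "Cortical MS", a cortical form of multiple sclerosis, and received either a blocker of CSF1R (called the inhibitor here), which is the growth factor receptor that keeps microglia alive, or vehicle. The labels name neither the compound nor its dose, and all 6 groups carry the disease induction, so no healthy group was compared. Cells were sorted into 3 populations. Blood-derived phagocytes were CD45-high, CD11b-high and CCR2-positive, activated microglia were CD45-high, CD11b-high and CCR2-negative, and resting microglia were intermediate for CD45 and CD11b. Each population had 6 inhibitor libraries and 5 vehicle libraries. Since separate or pooled animals are not recorded for the libraries, p-values measure the spread between these libraries only.

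Dendritic cells take up antigen and present it to T cells. They arise from bone marrow precursors under the growth factor FLT3L, acting on its receptor FLT3, and their conventional forms are divided into type 1 cells, which cross-present antigen to CD8 T cells, and type 2 cells, which mainly prime CD4 T cells. Monocytes that enter inflamed tissue can take on dendritic cell features, and in the brain dendritic cells are scarce and lie mostly at its borders. No gate used a protein specific to dendritic cells, so the members were measured in bulk in whatever passed the gates. In bulk RNA, fewer cells of a type and less RNA per cell cannot be told apart.

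Libraries held 11789802 to 22146705 counts, and 9740 to 14853 genes had at least 1 count. The sort labels were set against cell type markers. Activated microglia had a summed level of 8 microglia markers between 1037 and 5097 counts per 1000000 counts (CPM), against 21849 to 35067 CPM in resting microglia. All 8 markers were lower in activated than in resting microglia in vehicle mice and in inhibitor mice (edgeR quasi-likelihood test, adjusted p under 0.05). The summed level of 11 neutrophil markers was 20154 to 141665 CPM in the 11 libraries labelled activated microglia, 401 to 644 CPM in blood-derived phagocytes and 821 to 1061 CPM in resting microglia. The name "activated microglia" is therefore used here for the gate. In that gate 3 libraries had under 11000 detected genes, inhibitor replicates 1 and 2 and vehicle replicate 2.

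The members were not distributed alike over the groups. Flt3, Cd209a, Clec10a and Clec9a had mean levels several times higher in both CD45-high populations than in resting microglia, and Irf4, Xcr1 and Zbtb46 had their highest group means in activated microglia. For Irf4 and Xcr1 with inhibitor that order rests on replicate 1 of activated microglia, since without it their means there were 12.1 and 2.02 CPM, against 19.9 ± 13.7 and 3.86 ± 3.57 CPM in blood-derived phagocytes with inhibitor. Batf3 alone was highest in resting microglia. Per length of transcript, Cd209a was the most abundant member in blood-derived phagocytes, with a mean of 134 ± 53.4 FPKM in inhibitor mice (SD, n = 6) and 48.1 ± 23.7 FPKM in vehicle mice (SD, n = 5). Clec10a and Flt3 followed at 71.6 ± 19.4 and 17.6 ± 7.07 FPKM in inhibitor mice, and at 37.5 ± 11.7 and 7.24 ± 1.74 FPKM in vehicle mice. The type 1 receptors Clec9a and Xcr1 were the least abundant members there, at 1.26 ± 0.459 and 0.773 ± 0.662 FPKM in inhibitor mice and at 0.584 ± 0.349 and 0.457 ± 0.0859 FPKM in vehicle mice. In resting microglia the order was led by Batf3, at 14.3 ± 4.63 FPKM with inhibitor and 12.9 ± 2.64 FPKM with vehicle.

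**Figure D1:**
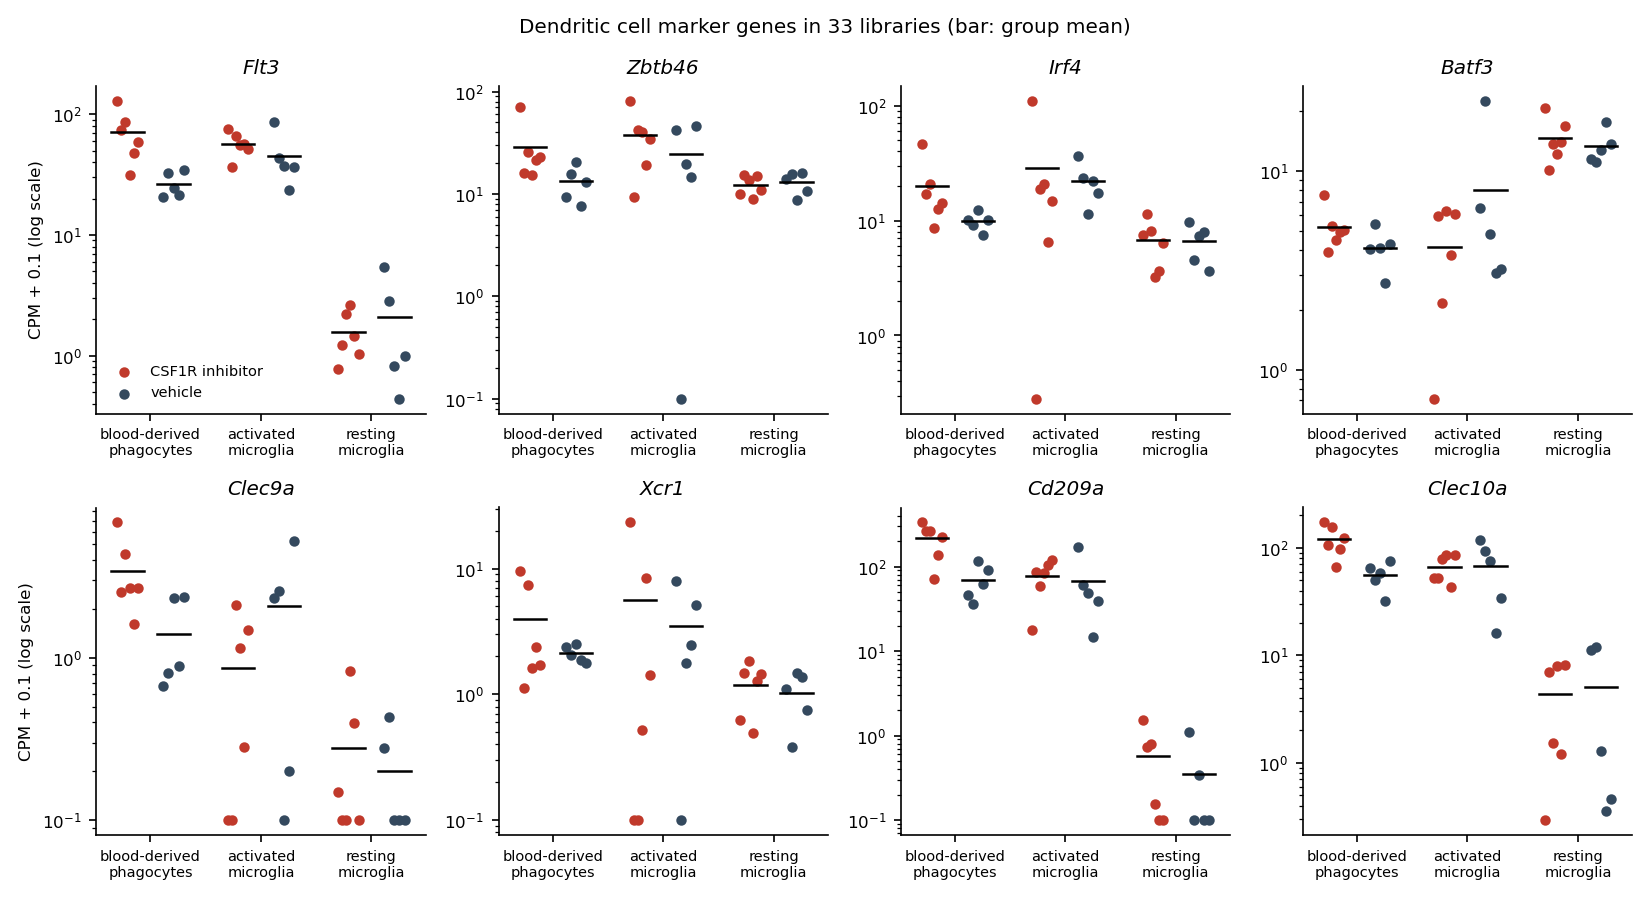
Level of each member in every library, as CPM + 0.1 on a log axis, by sorted population, with CSF1R inhibitor libraries (6) left of vehicle libraries (5) and a bar at each group mean. Flt3, Cd209a and Clec10a are higher in every library of both CD45-high populations than in any resting microglia library, and Batf3 has its highest group means in resting microglia.

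Flt3 encodes the receptor for FLT3L and lies on chromosome 5 (GRCm38 chr5:147330741-147400489, minus strand, GENCODE M21). In blood-derived phagocytes of inhibitor mice it ranged between 31 and 129 CPM with a median of 65.9 CPM, which rests on 636 to 2368 counts per library. The 5 vehicle libraries had 20.4, 32.2, 24.2, 21.2 and 34.3 CPM, or 395 to 680 counts. The groups overlapped in 1 library: 5 of 6 inhibitor libraries were above every vehicle library, and inhibitor replicate 4, at 31 CPM, was not. The log2 fold change of inhibitor over vehicle was 1.35 ± 0.30 (SE), and it did not pass the test (edgeR quasi-likelihood test, adjusted p = 0.0925 over 11670 genes).

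Levels of Flt3 in the CCR2-negative gate were of a like size. Activated microglia had 36.7 to 74.9 CPM in inhibitor mice with a median of 55.6 CPM, and vehicle libraries had 85.9, 43, 37.5, 23.6 and 36.6 CPM. The inhibitor range lay inside the vehicle range, and the log2 fold change was 0.36 ± 0.31 (edgeR, adjusted p = 0.999). Resting microglia had 0.675 to 2.50 CPM in inhibitor mice, with a median of 1.24 CPM, and 5.29, 2.73, 0.719, 0.339 and 0.889 CPM in vehicle mice, which is 4 to 89 counts per library over both groups. The 2 highest resting libraries, vehicle replicates 1 and 2, were also those with the most monocyte marker RNA in that population, 55.6 and 81.8 CPM over 6 markers against 10.9 to 32.4 CPM in the other 9. These 2 libraries also had the highest sums of 6 markers of border-associated macrophages, the macrophages at the edges of the brain. Their sums were 136 and 142 CPM, against 1.25 to 116 CPM in the other 9. The part of monocyte or macrophage marker RNA in these Flt3 counts was not tested. By group mean Flt3 followed the order blood-derived phagocytes with inhibitor (70.7 ± 34.2 CPM), activated microglia with inhibitor (56.9 ± 13.1 CPM), activated microglia with vehicle (45.3 ± 23.8 CPM), blood-derived phagocytes with vehicle (26.5 ± 6.4 CPM), resting microglia with vehicle (1.99 ± 2.06 CPM) and resting microglia with inhibitor (1.45 ± 0.712 CPM). Neighbours in this order overlapped in their libraries at every step except between blood-derived phagocytes with vehicle and resting microglia with vehicle.

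Zbtb46, Irf4 and Batf3 encode transcription factors. ZBTB46 marks the conventional dendritic cell lineage and is also made by endothelial cells. IRF4 acts in type 2 dendritic cells and in activated lymphocytes, and BATF3 is required for type 1 dendritic cells. Zbtb46 in blood-derived phagocytes had 15.1 to 70.3 CPM in inhibitor mice, with a median of 22.2 CPM, and 9.31, 15.7, 20.3, 7.52 and 13.1 CPM in vehicle mice. Of the inhibitor libraries 4 of 6 were above every vehicle library, and replicate 1 stood apart at 70.3 CPM, since the next library had 25.4 CPM. Activated microglia had 9.27 to 81.1 CPM (median 37.3 CPM) in inhibitor mice and 42.1, 0, 19.7, 14.4 and 46.2 CPM in vehicle mice. The 0 belongs to vehicle replicate 2, 1 of the 3 libraries with few detected genes, where 3 counts would have given 0.1617 CPM. Resting microglia kept to a narrow range, 8.79 to 15.3 CPM with inhibitor and 8.56 to 15.9 CPM with vehicle.

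The RefSeq promoter window of Zbtb46 is shown because it was the one member window to hold the letters TGANTCA. These letters are the AP-1 motif at which BATF family dimers can bind with IRF4 or IRF8. Promoter windows of 300 bases, 250 before and 50 after the RefSeq start (GRCm38.p6), were at hand for 7 of the 8 members. Clec10a had none. The match on the plus strand of the gene begins 61 bases before the RefSeq start and is in capitals. The window lies inside the gene as GENCODE M21 draws it, since the 5′ end of the gene is at base 181459426. Whether transcription starts in this window was not tested, so the window may not be a promoter. Of 32851 mouse promoters 7.81% held such a match on either strand, and a match describes letters, not binding.
Zbtb46, chr2:181424339-181424638, minus strand: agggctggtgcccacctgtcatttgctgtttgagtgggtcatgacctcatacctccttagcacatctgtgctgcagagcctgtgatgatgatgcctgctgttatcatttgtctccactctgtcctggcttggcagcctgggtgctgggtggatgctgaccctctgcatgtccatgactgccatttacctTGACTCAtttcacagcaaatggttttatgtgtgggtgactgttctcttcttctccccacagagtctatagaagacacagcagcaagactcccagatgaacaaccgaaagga

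Irf4 in blood-derived phagocytes had 8.53 to 46.6 CPM in inhibitor mice, with a median of 15.6 CPM, and 10, 8.97, 12.2, 7.42 and 10.1 CPM in vehicle mice. The vehicle libraries were close together, and 5 of 6 inhibitor libraries lay above all of them. Activated microglia of inhibitor mice covered 0.182 to 110 CPM, the widest range of any group, against 36.2, 23.2, 11.4, 21.8 and 17.2 CPM in vehicle mice. Both ends of that range came from libraries with few detected genes, replicate 1 at 110 CPM and replicate 2 at 0.182 CPM. Resting microglia had 3.12 to 11.4 CPM with inhibitor and 3.56 to 9.63 CPM with vehicle.

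Batf3 ran the other way. Blood-derived phagocytes had 3.83 to 7.44 CPM with inhibitor (median 4.88 CPM) and 3.93, 5.3, 4.0, 2.63 and 4.19 CPM with vehicle. Resting microglia had 9.95 to 20.7 CPM in inhibitor mice, with a median of 13.7 CPM, and 11.4, 11.0, 12.6, 17.5 and 13.6 CPM in vehicle mice. Every blood-derived phagocyte library was below every resting microglia library. Activated microglia had 0.615 to 6.15 CPM in inhibitor mice. In vehicle mice 4 of their libraries had 2.96 to 6.41 CPM and replicate 2 had 22.4 CPM.

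CLEC9A is a receptor for filaments exposed on dead cells, and XCR1 is the receptor for the chemokine XCL1. Both are surface markers of type 1 dendritic cells, and the counts of both genes were low. Clec9a was found in every blood-derived phagocyte library, with 26 to 124 counts (1.51 to 6.73 CPM) in inhibitor mice and 11 to 45 counts (0.569 to 2.27 CPM) in vehicle mice. It was at 0 in 2 of 6 inhibitor and 1 of 5 vehicle libraries of activated microglia, and in 3 of 6 inhibitor and 3 of 5 vehicle libraries of resting microglia. A share of 4.02% of the 50-base stretches of its transcripts also occurs in Clec1b, a neighbouring lectin gene with which it shares 184 exon bases, so some reads could belong to either gene. Xcr1 had 1.03 to 9.39 CPM in blood-derived phagocytes of inhibitor mice, where replicates 1 and 3 had 9.39 and 7.35 CPM and the other 4 had at most 2.27 CPM. The vehicle libraries had 2.28, 1.97, 2.42, 1.79 and 1.67 CPM, and only 2 of 6 inhibitor libraries were above all of them. In activated microglia Xcr1 had a range of 0 to 23.2 CPM with inhibitor and 0 to 7.83 CPM with vehicle, and the 23.2 CPM came from inhibitor replicate 1.

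CD209A and CLEC10A are C-type lectins that bind sugars on microbes and cells. They are used here as markers of type 2 and monocyte-derived dendritic cells, without being taken as restricted to them. Whether macrophages or other cells in these gates made their RNA was not tested. Cd209a (chr8:3743397-3748984, minus strand) had 71.8 to 333 CPM in blood-derived phagocytes of inhibitor mice, with a median of 243 CPM, and 46.5, 36.1, 115, 62.3 and 90.2 CPM in vehicle mice. All but inhibitor replicate 4 lay above every vehicle library. Activated microglia had 17.8 to 118 CPM with inhibitor (median 84.5 CPM) and 172, 59.7, 49.1, 14.6 and 39.4 CPM with vehicle, with broad overlap. Resting microglia came to 54 counts over 6 inhibitor libraries and 21 counts over 5 vehicle libraries, and 2 inhibitor and 3 vehicle libraries had no count.

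Cd209a was the one member whose promoter held GGAA and GAAA with any 2 bases between them, the composite element to which PU.1 and IRF4 or IRF8 can bind together. It is shown because Cd209a had the steepest difference between populations of all members. The match is on the opposite strand, where it reads TTTCTCTTCC on the strand printed, begins 9 bases before the start and is in capitals. Such a match was found in 2.72% of the 32851 promoters. GAAA and GAAA with any 2 bases between them, found in 3.44% of promoters, and the PU.1 letters GAGGAAGT, found in 3.2%, matched none of the 7 member windows.
Cd209a, chr8:3748935-3749234, minus strand: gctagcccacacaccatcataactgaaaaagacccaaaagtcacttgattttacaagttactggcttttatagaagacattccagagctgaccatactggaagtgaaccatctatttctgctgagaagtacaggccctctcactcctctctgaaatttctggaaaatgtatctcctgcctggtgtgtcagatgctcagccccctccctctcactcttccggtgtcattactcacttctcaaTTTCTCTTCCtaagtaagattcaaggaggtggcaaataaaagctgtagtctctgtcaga

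Clec10a in blood-derived phagocytes had 66.3 to 172 CPM in inhibitor mice, with a median of 115 CPM, and 65.4, 50.0, 57.9, 31.6 and 74.4 CPM in vehicle mice. Of the inhibitor libraries 5 of 6 were above every vehicle library, and 4 of 5 vehicle libraries were below every inhibitor library. Activated microglia had 42.7 to 85.9 CPM with inhibitor (median 65.5 CPM) and 118, 92.5, 75.8, 16.1 and 33.8 CPM with vehicle. Resting microglia had 0.193 to 8.0 CPM with inhibitor and 11.1, 11.8, 1.2, 0.254 and 0.356 CPM with vehicle, where replicates 1 and 2 again were the highest.

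The counts of Clec10a were fractions in 25 of 33 libraries, against 2 of 33 for Clec9a and 0 of 33 for each of the other members (tolerance 0.01). Its neighbour on chromosome 11, Mgl2, which encodes a second galactose-binding lectin, shares 270 of the 3181 distinct 50-base stretches of Clec10a transcripts. The longest identical run in the coding sequences is 183 bases, starting at base 502 of 927 in Clec10a and at base 550 of 1146 in Mgl2, and it is printed because a read lying inside it cannot be assigned to 1 gene.
Clec10a and Mgl2, identical coding run, sense strand: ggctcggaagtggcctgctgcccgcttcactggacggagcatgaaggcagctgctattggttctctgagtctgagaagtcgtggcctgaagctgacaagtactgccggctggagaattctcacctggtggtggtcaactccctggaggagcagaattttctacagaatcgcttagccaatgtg
Mgl2 averaged 21.3 ± 10.8 CPM in blood-derived phagocytes of inhibitor mice and 11.9 ± 4.11 CPM in those of vehicle mice, so its own level was below that of Clec10a in both groups. The split of shared reads between both genes is uncertain.

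The first comparison asked how CSF1R inhibition moved these genes within each sorted population. In blood-derived phagocytes every member had a positive log2 fold change of inhibitor over vehicle, and none passed the test (0 of 8, where 0.274% of 11670 genes tested were called). Values ran between 0.29 ± 0.23 for Batf3 (adjusted p = 0.611, edgeR) and 1.55 ± 0.42 for Cd209a (adjusted p = 0.143, edgeR). Clec10a had 1.04 ± 0.26 (adjusted p = 0.114, edgeR) and Irf4 had 0.94 ± 0.34 (adjusted p = 0.224, edgeR). Clec9a, Zbtb46 and Xcr1 had 1.26, 1.02 and 0.84 with adjusted p-values of 0.244, 0.278 and 0.484. The median over the 8 members was 1.03, beside a median of 0 over all genes tested. Marker lists of other cells had medians of 1.18 for T cell, 1.18 for NK cell and 1.01 for neutrophil markers. They were 0.28 for the 1 B cell marker tested, 0.02 for microglia, -0.09 for monocyte, -0.14 for border-associated macrophage and -0.61 for endothelial markers. The part of these cells in the members' values was not tested. At an unadjusted p under 0.05, 6 of 8 members were counted, where 14.6% of all genes were.

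The call for Flt3, Cd209a and Clec10a depended on the tool. DESeq2 gave an adjusted p for 5 of the 8 members and called these 3, where it called 366 of 9210 genes (3.97%), with adjusted p = 5.9e-05 for Flt3, 0.0116 for Cd209a and 5.3e-04 for Clec10a. Without inhibitor replicate 4, the lowest inhibitor library for Flt3, the edgeR value for Flt3 was 1.49 with an adjusted p of 0.0422. With each of the other 10 libraries left out in turn its adjusted p stayed at or above 0.05, up to 0.236.

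Some libraries were high for nearly all members, while Xcr1 and Batf3 departed from the rest in others. Inhibitor replicate 2 ranked 3 for Flt3 and Cd209a, but 11 for Xcr1 and 10 for Batf3. Agreement between members was not measured. Inhibitor replicate 1 was the highest of the 11 blood-derived phagocyte libraries for all 8 members, and inhibitor replicate 3 was second for 7 of 8. Inhibitor replicate 4 had a median rank of 8 among the 11, inside the span of the vehicle libraries, whose median ranks were 6.5 to 10.5. Markers of lymphocytes were also higher in some of these libraries. The sum of 8 T cell markers was 28.1 to 170 CPM in inhibitor and 14.1 to 53.7 CPM in vehicle libraries, and that of 7 NK cell markers was 53.5 to 262 CPM in inhibitor and 17.2 to 68.8 CPM in vehicle libraries. Inhibitor replicate 1 had the highest value of both sums. None of the 8 T cell and 7 NK cell markers was at 0 in a whole group of this population, no such marker was called, and their part in the members' values was not tested. The endothelial sum, of interest for Zbtb46, was 37.4 to 65.4 CPM in inhibitor and 54.5 to 106 CPM in vehicle libraries.

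**Figure D2:**
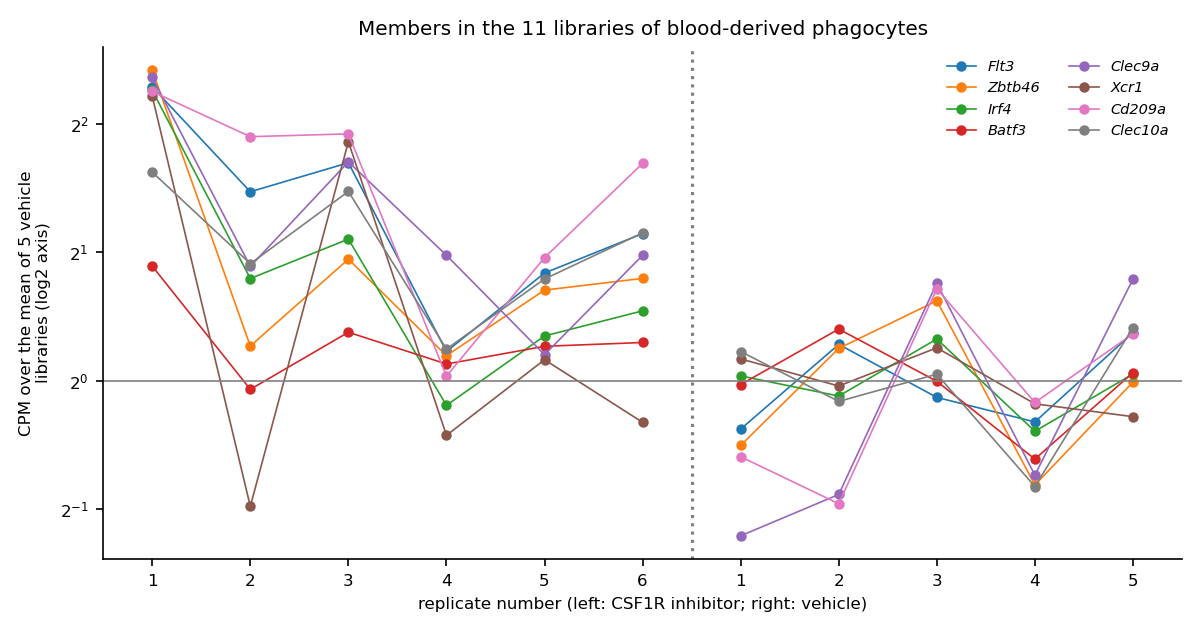
Each member in the 11 libraries of blood-derived phagocytes, as CPM over its mean in the 5 vehicle libraries on a log2 axis, with inhibitor replicates left of the dotted line and vehicle replicates right of it. Replicates carry no order, and lines only join the points of 1 gene. Inhibitor replicate 1 is highest for all 8 members. Inhibitor replicate 4 lies within the range of the vehicle libraries for all members except Clec9a, where it is above them, and Xcr1, where it is below them.

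In activated microglia 0 of 8 members passed the test, where 0 of 11675 genes did, with log2 fold changes of inhibitor over vehicle between -1.37 ± 1.66 for Clec9a and 0.62 ± 1.74 for Xcr1 (edgeR, adjusted p = 0.999 for all 8). At an unadjusted p under 0.05 none of the 8 was counted and 3.57% of genes were. DESeq2 called 19 genes and no member. The neutrophil sum was 20154 to 141665 CPM with inhibitor and 26005 to 82189 CPM with vehicle in that gate, so library makeup varied within both groups. Median log2 fold changes of marker lists were 2.02 for NK cell, 0.75 for T cell, 0.73 for neutrophil and 0.02 for monocyte markers. They were -0.1 for endothelial, -0.36 for B cell, -0.4 for microglia and -1.06 for border-associated macrophage markers, beside 0.01 over all genes. The part of these cells in the members' values was not tested. In resting microglia 0 of the 6 members tested passed, where 0 of 12226 genes did, with values between -0.45 ± 0.62 for Flt3 and 0.26 ± 0.54 for Xcr1 (edgeR, adjusted p = 0.991 and 0.996). None of the 6 had an unadjusted p under 0.05, where 5.49% of genes had, and DESeq2 called 16 genes and no member. Cd209a and Clec9a had too few counts there to be tested.

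**Figure D3:**
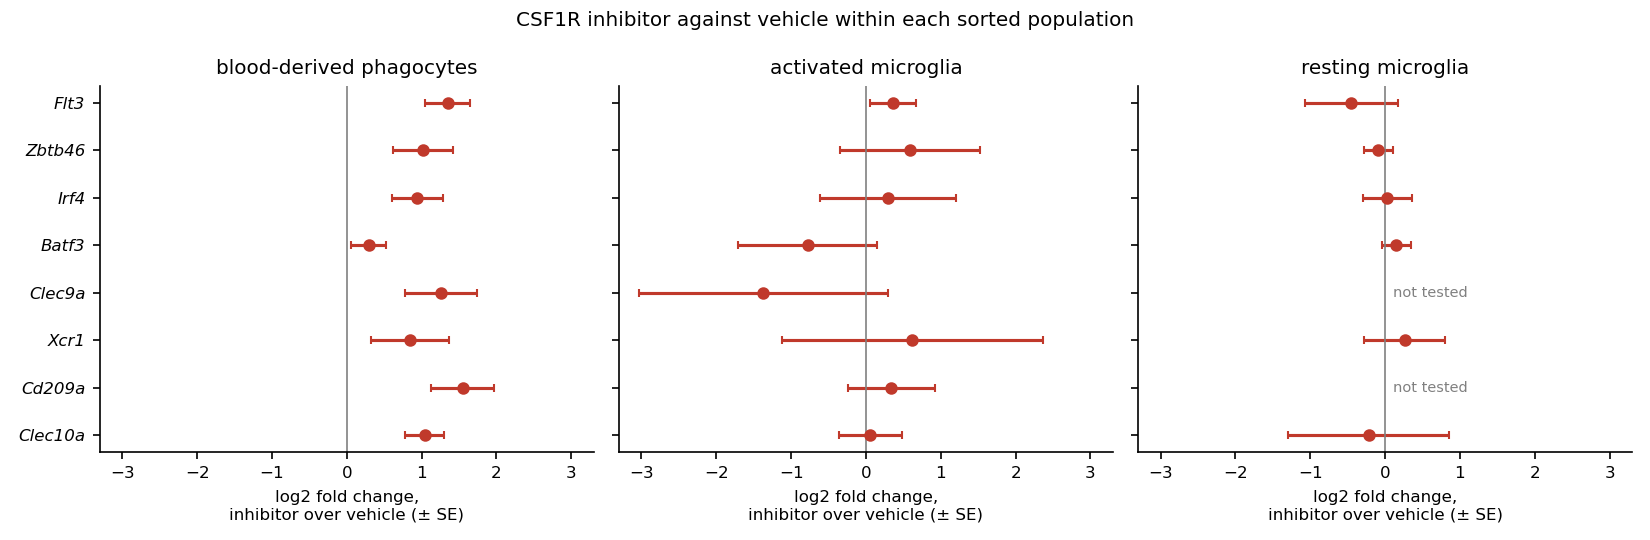
Log2 fold change of CSF1R inhibitor over vehicle for each member, within each sorted population, with bars of 1 SE from edgeR. All 8 points lie to the right of 0 in blood-derived phagocytes, between 0.29 and 1.55, and none of the 22 points drawn passed an adjusted p of 0.05.

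Whether the inhibitor effect differed between populations was tested directly, as the difference of the log2 fold changes. For Flt3 the effect in blood-derived phagocytes minus that in resting microglia was 1.83 ± 0.66 (edgeR, adjusted p = 0.708), and minus that in activated microglia it was 0.98 ± 0.42 (edgeR, adjusted p = 0.855). The effect in activated microglia minus that in resting microglia was 0.79 ± 0.70 (edgeR, adjusted p = 1). None of the 8 members passed in any of these 3 tests, where 0 of 12921, 0 of 12568 and 0 of 13172 genes passed by edgeR. An unadjusted p under 0.05 was found for 2 members (Flt3 and Zbtb46), 1 member (Flt3) and 0 members in that order, where 6.9%, 5.43% and 5.88% of genes had one. DESeq2 called 14, 60 and 75 genes and no member. The inhibitor effects of the populations were therefore not shown to differ.

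The second comparison set the CD45-high gates against resting microglia. In blood-derived phagocytes against resting microglia of inhibitor mice all 8 members passed the test, 7 higher and 1 lower, where 63.5% of 12022 genes passed, 31.2% higher and 32.2% lower. In vehicle mice 7 of 8 passed, 6 higher and 1 lower, where 62.5% of 12059 genes passed, 30.9% higher and 31.6% lower. A call in either direction was thus common among all genes. Markers of other cells passed as higher in the same comparison. With inhibitor these were 7 of 7 T cell, 7 of 7 NK cell and 6 of 6 monocyte markers tested, and with vehicle 5 of 6, 6 of 6 and 6 of 6, while all 8 microglia markers were lower under both treatments. Of the 5 border-associated macrophage markers tested, 2 passed as higher under each treatment, and 1 passed as lower with vehicle. The sum of 6 such markers was 305 to 677 CPM in blood-derived phagocytes. It was 30.8 to 312 CPM in activated microglia and 1.25 to 142 CPM in resting microglia. The part of all these markers in the members' levels was not tested.

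Cd209a was higher by 8.79 ± 0.65 on the log2 scale with inhibitor and by 8.25 ± 0.69 with vehicle (edgeR, adjusted p = 2.3e-07 and 2.2e-06). Flt3 was higher by 5.67 ± 0.39 with inhibitor and by 3.86 ± 0.56 with vehicle (edgeR, adjusted p = 4.2e-08 and 1.3e-04). Clec10a was higher by 4.93 ± 0.62 and 3.61 ± 0.80, and Clec9a by 4.23 ± 0.85 and 3.63 ± 0.92, with inhibitor and with vehicle in that order. For these 4 genes no library of blood-derived phagocytes overlapped with one of resting microglia under the same treatment, where 19.6% of genes with inhibitor and 19.9% with vehicle were higher without overlap. Xcr1 was higher by 1.89 ± 0.57 with inhibitor, with overlapping libraries, and by 1.32 ± 0.46 with vehicle, with none. Irf4 was higher by 1.65 ± 0.39 and 0.75 ± 0.26, with overlap under both treatments. Zbtb46 was higher by 1.29 ± 0.32 with inhibitor (edgeR, adjusted p = 0.00317), and its value of 0.20 ± 0.27 with vehicle did not pass (adjusted p = 0.552). Batf3 was the lower member, at -1.43 ± 0.20 with inhibitor and -1.55 ± 0.21 with vehicle (edgeR, adjusted p = 1.7e-05 and 4.1e-05), and its groups did not overlap, where 21.7% and 28.3% of genes were lower without overlap. With all 33 libraries in 1 fit, 5 of 8 members passed with inhibitor, where 29.5% of genes did, and 4 of 8 with vehicle, where 26% did. The calls lost in that fit were Irf4 and Xcr1 under both treatments, Zbtb46 with inhibitor (edgeR, adjusted p = 0.127) and Clec9a with vehicle (edgeR, adjusted p = 0.0627).

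**Figure D4:**
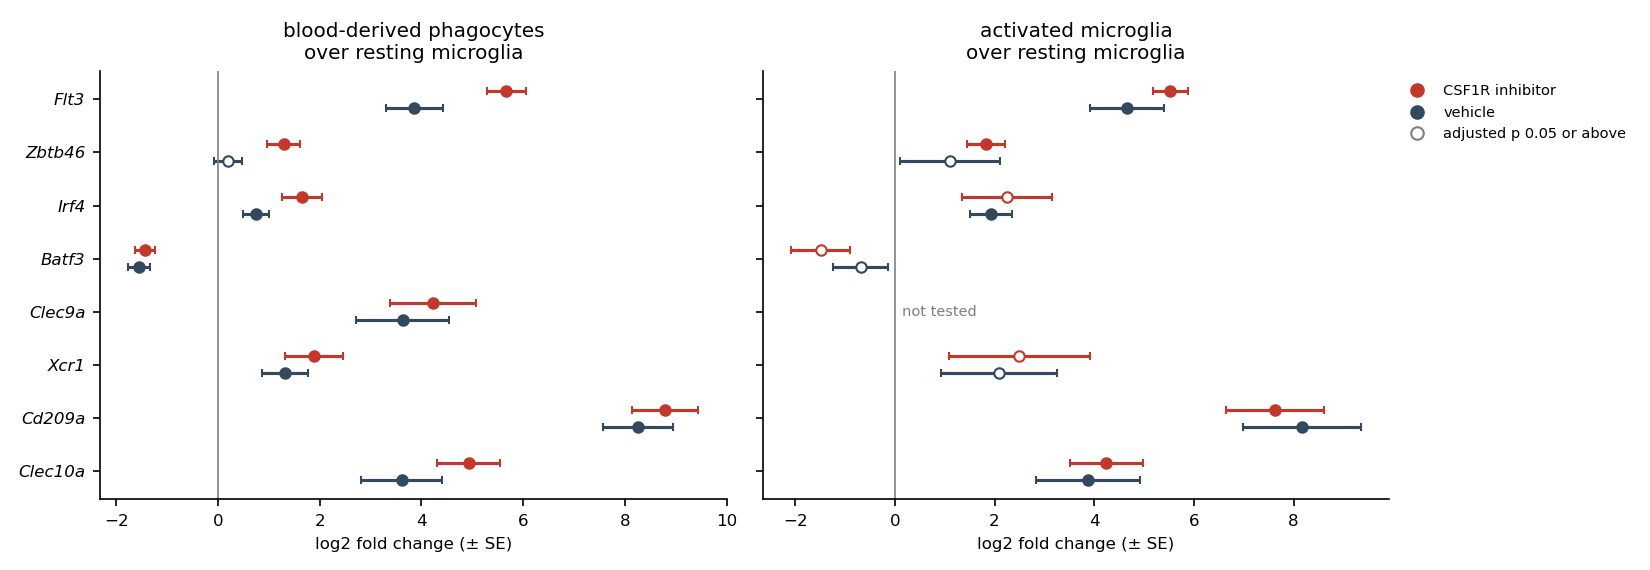
Log2 fold change over resting microglia of the same treatment for each member, in blood-derived phagocytes (left) and activated microglia (right), with bars of 1 SE from edgeR. Inhibitor is drawn above vehicle, and open circles mark an adjusted p of 0.05 or above. Cd209a lies farthest to the right in both panels, and Batf3 is the one member left of 0.

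In activated microglia against resting microglia 4 of 7 members tested passed with inhibitor, where 33.3% of genes did, and 4 of 7 with vehicle, where 28.9% did, all of them higher (22.1% and 18.2% of genes were). Flt3 was higher by 5.53 ± 0.35 with inhibitor and by 4.65 ± 0.74 with vehicle, Cd209a by 7.62 ± 0.98 and 8.17 ± 1.18, and Clec10a by 4.24 ± 0.73 and 3.87 ± 1.04 (edgeR, adjusted p at most 0.0167). The fourth was Zbtb46 with inhibitor, at 1.83 ± 0.39, and Irf4 with vehicle, at 1.93 ± 0.42. Whether these last 2 genes differ between treatments was covered by the interaction test, which they did not pass. With inhibitor, Irf4 at 2.25 ± 0.90 and Batf3 at -1.49 ± 0.59 did not pass (edgeR, adjusted p = 0.072 and 0.0685). Their calls depended on the processing. Of 7 other settings, Irf4 passed as higher in 3 and Batf3 as lower in 5, DESeq2 among them for both. Without vehicle replicate 2, which has 9825 detected genes, all 7 members tested passed with vehicle, Batf3 among them as lower, where 40.9% of 12483 genes passed. Neutrophil, T, NK, B cell and monocyte markers were higher in this gate too. Of the markers tested with vehicle, 11 of 11, 5 of 5, 7 of 7, 3 of 4 and 5 of 5 passed as higher. With vehicle, the sum of 6 monocyte markers was 1399 to 4026 CPM in activated microglia and 1563 to 6797 CPM in blood-derived phagocytes. The part of all these markers in the members' levels was not tested.

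Between both CD45-high gates few members passed the test, and their counts were near the shares over all genes. SEs reached 1.35 for Xcr1 with inhibitor and 1.22 for Clec9a with vehicle. A member that was not called was therefore not shown to be alike in both gates. In blood-derived phagocytes against activated microglia 0 of 8 members passed with inhibitor, where 20.2% of 11614 genes did, and 1 of 8 with vehicle, where 18.8% of 11598 genes did. With inhibitor, Clec10a and Cd209a came nearest, at 0.70 ± 0.25 and 1.24 ± 0.45 (edgeR, adjusted p = 0.0724 and 0.0737), and they were the 2 members with an unadjusted p under 0.05, where 31.8% of genes had one. DESeq2 called 2 of 8 members, where it called 26% of genes. The member called with vehicle was Irf4, at -1.21 ± 0.35 (edgeR, adjusted p = 0.0334), lower in blood-derived phagocytes with overlapping libraries. In the same comparison 6 of 8 T cell, 7 of 7 NK cell, 3 of 4 B cell and 11 of 11 neutrophil markers tested passed as lower, and their part in the Irf4 value was not tested. The Irf4 call was lost in 6 of 10 fits that left out 1 library (activated microglia replicate 1 or 4, or blood-derived phagocyte replicate 1, 2, 4 or 5), with edgeR adjusted p-values up to 0.0926. Comparisons that involve the same libraries, such as both with resting microglia, are not independent of each other.

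Lists of further dendritic cell genes put the members in context. In blood-derived phagocytes of inhibitor mice against vehicle mice 0 genes were called in any of 5 lists, of 11 type 1, 9 type 2 and monocyte-derived, 11 mature and migratory, 7 plasmacytoid and 12 FLT3 axis genes tested, with list medians of 0.01, 0.30, 0.42, 0.23 and 0.09, beside 0 over all genes. In the same gate Kit, the stem cell factor receptor and a receptor kinase of the same class as Flt3, had 59.1 ± 37.2 CPM with inhibitor and 25.9 ± 9.71 CPM with vehicle, a log2 fold change of 1.10 ± 0.41 that did not pass (edgeR, adjusted p = 0.255). Flt3l, which encodes the ligand, had 8.11 ± 1.86 CPM with inhibitor and 5.24 ± 1.44 CPM with vehicle, a log2 fold change of 0.59 ± 0.21 (edgeR, adjusted p = 0.213).

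Against resting microglia the lists differed in their counts, which stand beside shares over all genes of 31.2% higher and 32.2% lower with inhibitor and 30.9% higher and 31.6% lower with vehicle. In inhibitor mice the type 2 and monocyte-derived list had 6 of 9 genes higher and 1 lower in blood-derived phagocytes (median 0.94), the mature and migratory list 7 of 10 and 1 (median 1.75), and the FLT3 axis list 7 of 11 and 2 (median 0.51). The type 1 list had 4 of 10 higher and 3 lower (median 0.15) and the plasmacytoid list 2 of 7 and 4 (median -0.66), with a median of -0.05 over all genes. In vehicle mice the type 2 and monocyte-derived list had 6 of 9 genes higher and 1 lower in blood-derived phagocytes (median 0.90), led by Epcam, an adhesion molecule, at 6.30 ± 0.56, and by Ltb, which encodes lymphotoxin beta, at 1.79 ± 0.17. Of the mature and migratory genes 7 of 10 were higher and 1 lower (median 1.41). Ccl17, a chemokine of mature dendritic cells, was higher by 3.91 ± 0.70, and Fscn1, an actin-bundling protein of migrating dendritic cells, was lower by 3.91 on the log2 scale (log2 fold change -3.91 ± 0.68). The FLT3 axis list had 6 of 11 higher and 2 lower (median 0.37), and its smallest p-values belonged to Ikzf1, which encodes a lymphoid and myeloid transcription factor and was lower at -1.14 ± 0.09, and to Kit, higher at 4.62 ± 0.45. The type 1 list had 3 of 10 higher and 5 lower (median -0.34), so its median differed in sign between inhibitor and vehicle mice, a difference that was not tested. Cadm1, an adhesion molecule, had 32 CPM in blood-derived phagocytes and 174 CPM in resting microglia, and Tlr3, a sensor of double-stranded RNA, had 28.7 and 147 CPM. Both passed as lower, at -2.29 ± 0.14 and -2.20 ± 0.18, while Cd24a, a glycosylated surface protein, was higher at 4.54 ± 0.41. The plasmacytoid list had 2 of 7 higher and 4 lower (median -0.77), and Siglech, a lectin that microglia also make, was lower at -6.24 ± 0.59. In vehicle mice the median over all genes was -0.04.

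The genes most like each member were sought by the correlation of log2 CPM over the 33 libraries among 11911 genes, as a description, since the libraries of a group share their sort and the 3 populations differ widely. Flt3 was closest to Gpr171, Kmo and Atp8b4 (Pearson r = 0.971, 0.970 and 0.966), Clec10a to Plbd1, Gpr171 and Dpp4 (0.955, 0.951 and 0.946), and Cd209a to Vav3, St3gal4 and Olfm1 (0.947, 0.945 and 0.944). Batf3 was closest to Csnk1e, Tsen34 and Laptm4b (0.878, 0.872 and 0.851). Zbtb46 had Mis18a, Phf2 and Sugp1 (0.894, 0.888 and 0.887), and Irf4 had Kbtbd11, Stat5a and Rusc1 (0.895, 0.875 and 0.787). The 2 rarest members had lower values, with Eef2, Tmem150b and Spink2 for Clec9a (0.812, 0.812 and 0.800) and Smim24, Stk35 and Btbd1 for Xcr1 (0.783, 0.755 and 0.718).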

How the data were processed

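RNA of flow-sorted brain cells, 100 to 380000 per sample, was amplified with SMART-Seq v4 in 11 or 17 PCR cycles, per the labels, which do not give cycles or cells of single libraries. Per the submitters' processing notes the build was GRCm38 and bcl2fastq was used. Neither aligner nor counter is named in the sources used here. The authors deposited expected counts, in which reads shared by genes can be split, and 16.3% of values were not whole. They were rounded for the count models. The deposited log2 FPKM values were taken to have 1 added, since they hold exact zeros and nothing negative, and were turned back to FPKM for levels compared between genes. All columns were matched to labels.

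CPM used total counts. Each comparison was fitted on its own groups in R 4.3.3 with edgeR 4.0.16: filterByExpr, TMM, robust quasi-likelihood F test, Benjamini-Hochberg adjusted p under 0.05 over all genes tested. SE is the log2 fold change over the root of F. Code was tested on simulated data. Alternatives were DESeq2 1.42.0, RLE scaling, limma-trend (limma 3.58.1) on log2 FPKM, a single fit of all 33 libraries, genes kept from 1 count upward, the replicate number as a block, leaving out libraries under 11000 detected genes, and each library in turn. Gene positions came from GENCODE M21, promoters from RefSeq, and symbols from a table pairing them with Ensembl identifiers, which named 21886 of 21950 genes.

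The members and lists were chosen with earlier results of these data known. Named genes are the 8 members, up to 4 called genes of smallest p in each list of a described comparison, the 3 most correlated genes of each member (mean of at least 1 CPM, prior count 2), and Mgl2. Flt3l and Kit against vehicle, and the list genes chosen among those 4, were named after their values were seen. The limit that a count of 0 allows, 3 counts, covers counting error only, since amplified reads are not independent molecules.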

Additional observations from a re-analysis of the deposited data

Results flagged for a closer look

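In 7 of 47 sets of libraries (1 member in 1 group, with at least 10 counts in 1 library) the highest library stood apart. The rule was Dixon's criterion at the 95% level, applied to both ends of each set. Normally distributed values meet it at either end in about 1 of 20 sets. CPM cannot be negative and need not be normal, so that share is no measure of how unusual the 7 are. The sets share libraries, so the 7 are not independent.

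Inhibitor replicate 1 of blood-derived phagocytes stood apart for Zbtb46 (70.3 CPM, next 25.4 CPM) and Irf4 (46.6 CPM, next 20.9 CPM). It also ranked first for the other 6 members. Inhibitor replicate 1 of activated microglia, which has 9740 detected genes, stood apart for Irf4 (110 CPM, next 20.8 CPM) and Xcr1 (23.2 CPM, next 8.35 CPM). Vehicle replicate 2 of activated microglia, with 9825 detected genes, stood apart for Batf3 (22.4 CPM, next 6.41 CPM), and the same library had no count of Zbtb46 or Xcr1. Vehicle replicate 1 stood apart for Cd209a in activated microglia (172 CPM, next 59.7 CPM) and in resting microglia (1.01 CPM, next 0.24 CPM, 17 and 4 counts).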

How the results depend on the processing

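The counts of members past the threshold moved by over 1.5 times in these cases. For inhibitor against vehicle in blood-derived phagocytes, 0 became 3 with DESeq2 and 1 (Clec10a) with the replicate block, and 0 to 1 when each library was left out. For blood-derived phagocytes against resting microglia, all 33 libraries in 1 fit gave 5 in place of 8 with inhibitor and 4 in place of 7 with vehicle. For activated against resting microglia with vehicle, 4 became 7 without the libraries under 11000 detected genes, and 4 to 7 on leaving out each library. For blood-derived phagocytes against activated microglia with vehicle, 1 became 0 with no filter, all 33 libraries in 1 fit, limma-trend on log2 FPKM and the replicate block, 2 without the libraries under 11000 detected genes, and 0 to 2 on leaving out each library. With inhibitor, 0 became 2 with DESeq2, 1 with no filter and 1 without the libraries under 11000 detected genes, and 0 to 2 on leaving out each library. The cause of these changes was not tested. For the differences of inhibitor effects, all 8 members were refitted under every setting and counts stayed at 0. Fold changes from these fits were kept for Flt3 alone, which held its sign, so the signs of the other members are not given.

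Genes called in all for inhibitor against vehicle in blood-derived phagocytes were 32, against 366 with DESeq2, 61 with the replicate block, 0 with all 33 libraries in 1 fit or limma-trend, and 0 (without inhibitor replicate 5) to 181 (without inhibitor replicate 6) on leaving out 1 library. All 33 libraries in 1 fit gave 322 in place of 0 for inhibitor against vehicle in activated microglia. Against resting microglia the same fit gave 3967 in place of 7628 (inhibitor) and 3493 in place of 7542 (vehicle) in blood-derived phagocytes, and 6121 in place of 4007 (inhibitor, 6258 with limma-trend) in activated microglia. Blood-derived against activated microglia gave 2348 with inhibitor, 3969 with all 33 libraries in 1 fit and 3781 without the libraries under 11000 detected genes, and 2176 with vehicle, 3619 without those libraries and 1401 with the replicate block. For the differences of inhibitor effects, DESeq2 gave 14 to 75 in place of 0, leaving out a library at most 5, and the other settings at most 4.

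Signs turned only for values that had not passed the test. On leaving out each library, inhibitor over vehicle in activated microglia ran between -0.75 and 1.18 for Xcr1, -0.88 and 0.54 for Irf4, -1.05 and 0.03 for Batf3, and -0.20 and 0.38 for Clec10a. In resting microglia it ran between -0.71 and 0.26 for Flt3, -0.20 and 0.01 for Zbtb46, -0.18 and 0.21 for Irf4, and -0.52 and 0.44 for Clec10a. Blood-derived phagocytes over resting microglia ran between -0.02 and 0.36 for Zbtb46 with vehicle. Blood-derived phagocytes over activated microglia ran with vehicle between -0.22 and 0.82 for Cd209a, -0.90 and 0.16 for Clec9a, and -0.51 and 0.07 for Clec10a, and with inhibitor between -0.01 and 0.35 for Flt3, -0.94 and 0.82 for Xcr1, -0.90 and 0.62 for Irf4, and -0.15 and 0.34 for Batf3. With the replicate block, inhibitor over vehicle was -1.19 for Xcr1 and -0.68 for Irf4 in activated microglia, and 0.12 for Flt3, -0.03 for Irf4 and 0.05 for Clec10a in resting microglia, while blood-derived over activated was 0.15 for Clec9a with vehicle, and 1.31 for Xcr1 and 0.26 for Irf4 with inhibitor. Without the libraries under 11000 detected genes, inhibitor over vehicle in activated microglia was -0.76 for Xcr1, -0.56 for Irf4 and 0.08 for Batf3, and blood-derived over activated was -0.01 for Cd209a with vehicle, and 0.49 for Xcr1 and 0.30 for Irf4 with inhibitor. With limma-trend, inhibitor over vehicle was -0.24 for Irf4 in activated and 0.07 for Clec10a in resting microglia, and blood-derived over activated was 0.08 for Clec9a and 0.14 for Clec10a with vehicle and 0.05 for Irf4 with inhibitor.

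Whether same-numbered libraries belong together is not recorded. Of 45 same-numbered pairs, 5 correlated above 0.1 in their deviations from group means (-0.221 to 0.423). The best match had the same number in 6 of the 45. These correlations cannot tell whether such libraries share an animal or a sort, and the main fits used no pairing. Low counts limit Clec9a and Xcr1, and in resting microglia also Cd209a and some libraries of Flt3 and Clec10a. Batf3, Zbtb46 and Irf4 had at least 56 counts in every resting microglia library.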
